A study of Mus musculus with 2 samples.

Results

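The genes described here form a trio of related miRNA clusters, each of which holds a gene of the miR-99/100 family, a let-7 gene and a miR-125 gene. The clusters are the Mir99a locus on chromosome 16 (Mir99a, Mirlet7c-1, Mir125b-2), the Mir99b locus on chromosome 17 (Mir99b, Mirlet7e, Mir125a) and the Mir100 locus on chromosome 9 (Mir100, Mirlet7a-2, Mir125b-1). Their 9 genes were taken by gene identifier from the 2202 miRNA genes that were counted, whatever their values. Both libraries were made from total RNA of the hippocampus (labelled as a layer of it) of male B6CASTF1/J mice aged 14 days, an F1 hybrid of C57BL/6J and CAST/EiJ. They form 1 group of 2 biological replicates, each labelled with 3 numbered males, and the numbers differ between the replicates. The labels give both the same donor identifier and do not say whether the tissue of the males was pooled. P-values therefore reflect the difference of these samples alone, and part of it may be technical. No genotype other than the cross and no treatment is named.

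Replicate 1 had 3793934 counts on miRNA genes and replicate 2 had 2554997. Levels are counts per 1000000 of these (CPM), each gene stands for a whole hairpin precursor, and the tables do not separate the arms. Reads that matched several places were given to no gene and made up 26.3% of all reads in replicate 1 and 37.5% in replicate 2. Of 13 brain-enriched miRNA genes, 9 reached 2 CPM in both libraries. The 13 had a summed level of 33949 and 26357 CPM, against 20.6 and 29.7 CPM for the liver gene Mir122. Mir132 alone was at 17266 CPM in replicate 1 and 5947 CPM in replicate 2. The genes that did not reach 2 CPM in both were the Mir124a genes and Mir9-2, with Mir124a-1 at 3.16 and 1.57 CPM. Of 7 muscle and heart genes, 4 had no count in either library and the summed level was 29.3 and 36.4 CPM. The endocrine gene Mir375 was detected at 379 and 302 CPM.

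A miRNA is cut from one arm of a hairpin, and its bases 2 to 8, the seed, set most of its target choice. The let-7 family rises as cells leave the progenitor state and is held back before that by the RNA-binding protein Lin28. miR-125 is the vertebrate form of lin-4, the first miRNA found in worms, and acts with let-7 on overlapping developmental targets, Lin28 among them. The miR-99/100 family is known for targets in the insulin-like growth factor and mTOR pathway. In neurons, miR-125b is also known for effects on dendritic spines.

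The mature sequences show which genes can be told apart by a read, so the 5p arm of each of the 9 genes is given, from RefSeq on GRCm38.p6, with the seed in capitals.
miR-99a-5p of Mir99a: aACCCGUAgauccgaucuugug
miR-99b-5p of Mir99b: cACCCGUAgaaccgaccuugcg
miR-100-5p of Mir100: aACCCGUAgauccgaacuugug
let-7c-5p of Mirlet7c-1: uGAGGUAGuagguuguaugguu
let-7e-5p of Mirlet7e: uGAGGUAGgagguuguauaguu
let-7a-5p of Mirlet7a-2: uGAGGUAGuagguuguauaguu
miR-125b-5p of Mir125b-2 and Mir125b-1: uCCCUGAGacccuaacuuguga
miR-125a-5p of Mir125a: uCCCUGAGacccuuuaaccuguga

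The 3 genes of each role share 1 seed, and the differences lie outside it. Counted from 1 at the 5′ end, miR-99a-5p and miR-100-5p differ by U16A alone. miR-99a-5p and miR-99b-5p differ by A1C, U11A, U16C and U21C. let-7c-5p and let-7a-5p differ by G19A, and let-7a-5p and let-7e-5p by U9G. miR-125a-5p has 24 bases against 22 for miR-125b-5p, and their first 13 are identical. The RefSeq table lists let-7a-5p under Mirlet7a-1, and the Mirlet7a-2 hairpin holds the same letters. Of 1058 genes under which the RefSeq table lists a mature sequence, Mir99a, Mir99b and Mir100 are the only ones with the seed of miR-99a-5p. The miR-125 seed is listed under 6 genes and the let-7 seed under 13, which leaves out Mirlet7a-2 because of where let-7a-5p is listed.

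Of the 9 genes, 4 have a 5p arm that a second annotated hairpin also holds: let-7c-5p lies in Mirlet7c-1 and Mirlet7c-2, let-7a-5p in Mirlet7a-2 and Mirlet7a-1, and miR-125b-5p in both Mir125b genes. These are called repeated copies here, and the other 5 genes, with both arms in 1 hairpin, unique copies. The arm that sets a repeated copy apart is its 3p arm, which no other annotated hairpin holds, shown with bases 2 to 8 in capitals.
let-7c-1-3p: cUGUACAAccuucuagcuuucc
let-7a-2-3p: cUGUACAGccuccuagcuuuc
miR-125b-2-3p: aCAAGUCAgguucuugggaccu
miR-125b-1-3p: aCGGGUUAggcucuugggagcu

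The 2 let-7 hairpins of the Mir99a and Mir100 loci are shown whole with their longest common stretch, of 21 bases, in capitals, since it covers most of the let-7 arm.
Mirlet7c-1, chr16:77599657-77599750, plus strand: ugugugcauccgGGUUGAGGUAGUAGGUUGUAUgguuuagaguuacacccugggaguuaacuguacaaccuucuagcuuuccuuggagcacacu
Mirlet7a-2, chr9:41536716-41536811, plus strand: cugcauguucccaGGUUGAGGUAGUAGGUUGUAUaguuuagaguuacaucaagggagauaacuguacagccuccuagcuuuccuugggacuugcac

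The loci differ in layout on mm10. All 9 genes lie on the plus strand. Mir99a (ENSMUSG00000065530.1, chromosome 16, 77598936 to 77599000) is 656 bases before Mirlet7c-1 (ENSMUSG00000065557.3), and Mir125b-2 (ENSMUSG00000065472.1, 77646273 to 77646343) follows after another 46.5 kb. All of them lie in introns of the non-coding gene Mir99ahg. The Mir100 locus has the same spread-out form, with 5.21 kb from Mir100 (ENSMUSG00000093011.1, chromosome 9, 41531425 to 41531504) to Mirlet7a-2 (ENSMUSG00000092770.1) and 45.1 kb from there to Mir125b-1 (ENSMUSG00000093354.1, 41581926 to 41582002). Its genes lie in introns of the non-coding genes 3110039I08Rik and Gm49317, and Mir125b-1 also lies in an exon of Gm28119. The Mir99b locus is packed into 0.692 kb of chromosome 17, where Mir99b (ENSMUSG00000065396.1, 17830188 to 17830257), Mirlet7e (ENSMUSG00000105758.1, 17830352 to 17830444) and Mir125a (ENSMUSG00000065479.2, 17830812 to 17830879) are 94 and 367 bases apart. This locus lies in the protein-coding gene Spaca6, Mir99b and Mirlet7e in introns and Mir125a in an exon.

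The first question was how much each gene and locus gave. Together the 9 genes held 11.1% of counts in replicate 1 and 14.8% in replicate 2. The Mir99a locus held 6.55% (95% Wilson interval 6.52 to 6.57) and 8.68% (8.65 to 8.72), the Mir99b locus 3.34% (3.32 to 3.36) and 4.47% (4.44 to 4.49), and the Mir100 locus 1.19% (1.18 to 1.21) and 1.63% (1.61 to 1.64). Such intervals cover counting error only. By counted reads, the order of the loci was the same in both libraries and their ranges did not overlap. By role, the miR-99/100 genes held 73.5% and 80.5% of the counts of the 9 genes, the let-7 genes 15.1% and 11.8%, and the miR-125 genes 11.4% and 7.77%. All miR-99/100 genes are unique copies, while Mirlet7c-1, Mirlet7a-2 and both Mir125b genes are repeated copies. The Mir99b locus holds no repeated copy. Reads that matched several places were given to no gene, so these shares set neither the roles nor the loci on equal terms.

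Among the miR-99/100 genes, Mir99a had 242534 counts or 63927 CPM in replicate 1 and 217799 counts or 85244 CPM in replicate 2, a mean of 74586 ± 15074 CPM (SD, n = 2). It held rank 3 of 2202 by mean CPM and lay above the other 8 genes in each library. Mir99b was at 7338 CPM in replicate 1, from 27841 counts, and at 19460 CPM in replicate 2, from 49719 counts. Its mean of 13399 ± 8571 CPM carried the widest relative spread of the 9. Mir100 was at 10181 and 14265 CPM, from 38626 and 36447 counts, with a mean of 12223 ± 2888 CPM. Each of the miR-99/100 genes was higher in replicate 2.

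Among the let-7 genes, Mirlet7e was at 15944 CPM in replicate 1 and 16098 CPM in replicate 2, from 60491 and 41131 counts, with a mean of 16021 ± 109 CPM. It made up 95.1% and 92.7% of the let-7 counts of the loci, where it is the only let-7 gene that is a unique copy. Mirlet7c-1 was at 712 and 1108 CPM, from 2700 and 2832 counts, with a mean of 910 ± 281 CPM. Mirlet7a-2, the lowest of the 9, was at 112 CPM (exact Poisson interval 101 to 123) and 162 CPM (147 to 178), from 424 and 414 counts. Its mean was 137 ± 35.6 CPM.

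Among the miR-125 genes, Mir125a was at 10088 and 9138 CPM, from 38274 and 23347 counts, with a mean of 9613 ± 672 CPM. Mir125b-1 was at 1654 and 1848 CPM, from 6276 and 4722 counts, with a mean of 1751 ± 137 CPM. Mir125b-2 was at 837 CPM from 3177 counts in replicate 1 and at 494 CPM from 1263 counts in replicate 2, with a mean of 666 ± 243 CPM. The miR-125 gene was above the let-7 gene in both libraries in the Mir100 locus and below it in both in the Mir99b locus. In the Mir99a locus, the 2 genes changed places between the libraries. Both genes are repeated copies in the Mir100 and Mir99a loci and unique copies in the Mir99b locus. The loci are thus not compared on equal terms.

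**Figure D1:**
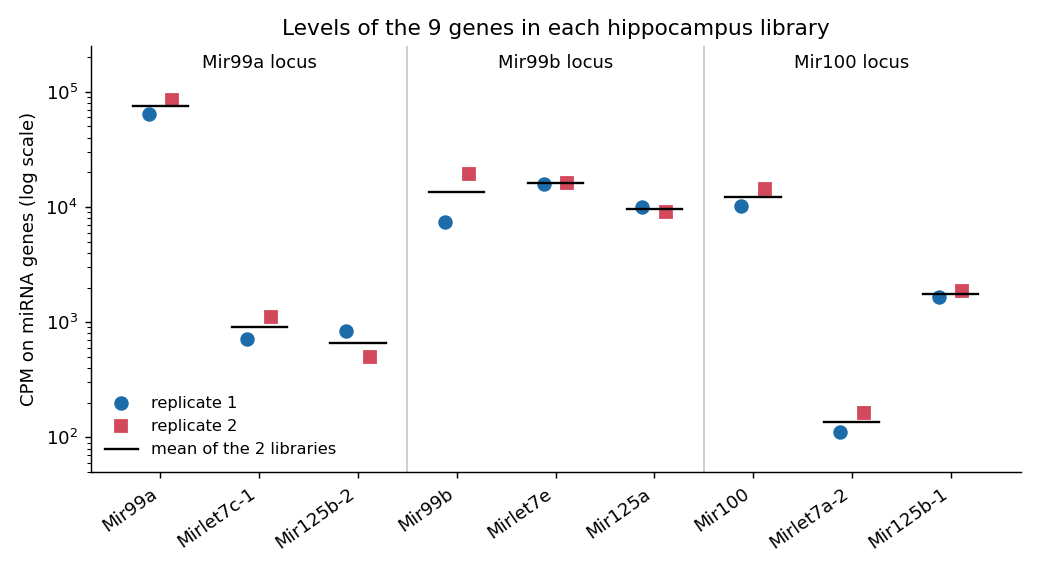
Level of each gene in CPM (vertical, log scale) by locus (horizontal), with circles for replicate 1, squares for replicate 2 and a bar for their mean. Mir99a stands above all others in both libraries, the genes of the Mir99b locus lie between 7338 and 19460 CPM, and the let-7 and miR-125 genes of the other loci lie at 1848 CPM or below.

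By mean CPM the order was Mir99a, Mirlet7e, Mir99b, Mir100, Mir125a, Mir125b-1, Mirlet7c-1, Mir125b-2 and Mirlet7a-2. Mir99b, at 7338 and 19460 CPM, spanned the values of Mirlet7e, Mir100 and Mir125a and could not be ordered against them. Mirlet7e lay above Mir100, and Mir100 above Mir125a, without overlap of their ranges over the libraries. In replicate 1, however, Mir100 and Mir125a were nearly level, at 10181 and 10088 CPM. Their exact Poisson intervals there, 10080 to 10283 and 9987 to 10190 CPM, overlapped. Mirlet7c-1 and Mir125b-2 overlapped each other. The widest gaps between neighbours in mean CPM put Mir99a 4.66-fold above Mirlet7e, Mir125a 5.49-fold above Mir125b-1, and Mir125b-2 4.86-fold above Mirlet7a-2. With 2 libraries in 1 group no test of these differences between genes was made.

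The second question was how the counts of a locus divide among its genes. In the Mir99a locus nearly all counts were from Mir99a, 97.6% and 98.2% in replicates 1 and 2. Mirlet7c-1 took 1.09% and 1.28%, and Mir125b-2 took 1.28% and 0.569%. The Mir100 locus had the same lean, with 85.2% and 87.6% from Mir100, 13.8% and 11.4% from Mir125b-1, and 0.935% and 0.996% from Mirlet7a-2. The Mir99b locus was divided more evenly, and its leading gene differed between the libraries. In replicate 1 Mirlet7e led with 47.8%, before Mir125a with 30.2% and Mir99b with 21.99%. In replicate 2 Mir99b led with 43.5%, before Mirlet7e with 36.0% and Mir125a with 20.4%. Mir99a and Mir100 are the only unique copies of their loci, while every gene of the Mir99b locus is a unique copy. How far the uncounted reads of repeated copies shaped these shares was not tested.

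**Figure D2:**
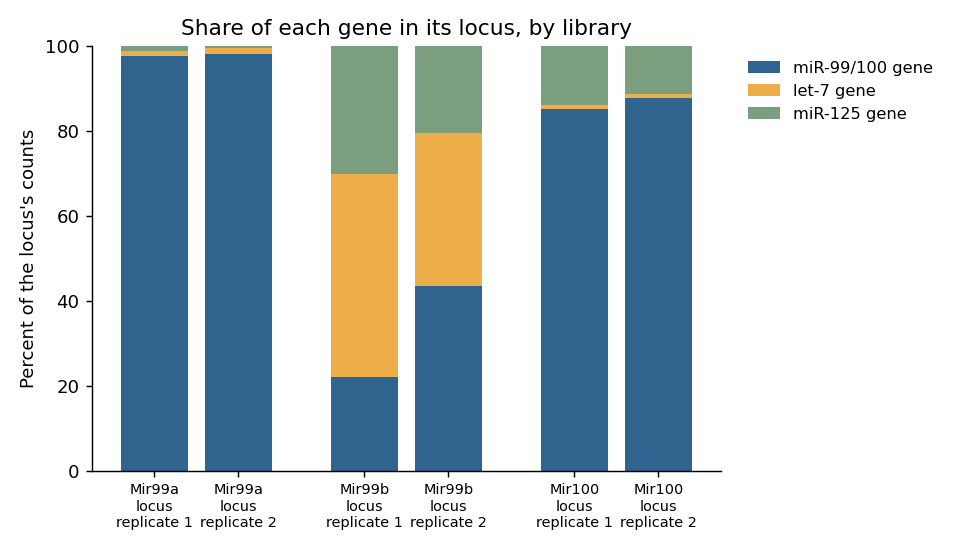
Percent of the counts of each locus (vertical) that came from its miR-99/100, let-7 and miR-125 gene, as stacked bars with 1 bar per locus and library. Mir99a and Mir100 take from 85.2% to 98.2% of their loci, while Mir99b takes 21.99% of its locus in replicate 1 and 43.5% in replicate 2. Mir99a and Mir100 are the only unique copies of their loci, and all genes of the Mir99b locus are unique copies.

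Ratios within a locus do not depend on the library total. Mir99a stood 89.8 times above Mirlet7c-1 in replicate 1 and 76.9 times in replicate 2. Mir100 stood 91.1 and 88.04 times above Mirlet7a-2, and this ratio was the only one of 9 whose counting intervals from the libraries overlapped. On the log2(CPM + 0.5) scale these ratios were 6.38 ± 0.16 and 6.48 ± 0.03 (SD, n = 2). Each sets a unique copy against a repeated one.

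Mir99a over Mir125b-2 was 76.3 in replicate 1 and 172 in replicate 2, a change of 1.18 in log2 ratio. Mir100 over Mir125b-1 was 6.15 and 7.72, a change of 0.33. By counted reads, the miR-125b copy of the Mir100 locus thus stayed nearer to its miR-99/100 gene than that of the Mir99a locus in both libraries. Both ratios set a unique copy against a repeated one, and reads that matched both miR-125b copies were given to neither. Whether the order holds with those reads was not tested. The log2 ratio of Mirlet7a-2 over Mir125b-1 was -3.88 in replicate 1 and -3.51 in replicate 2. Mirlet7c-1 was below Mir125b-2 by 1.18-fold in replicate 1 and above it by 2.24-fold in replicate 2, so the direction was not stable.

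In the Mir99b locus all 3 genes are unique copies. Mirlet7e over Mir125a was 1.58 and 1.76, or 0.74 ± 0.11 in log2, a change of 0.16 between the libraries. Mir99b over Mirlet7e was 0.460 and 1.21, and Mir99b over Mir125a was 0.727 and 2.13. Both ratios with Mir99b crossed 1, with changes of 1.39 and 1.55 in log2 ratio. The values that moved were thus those of Mir99b, although it lies 94 bases from Mirlet7e.

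**Figure D3:**
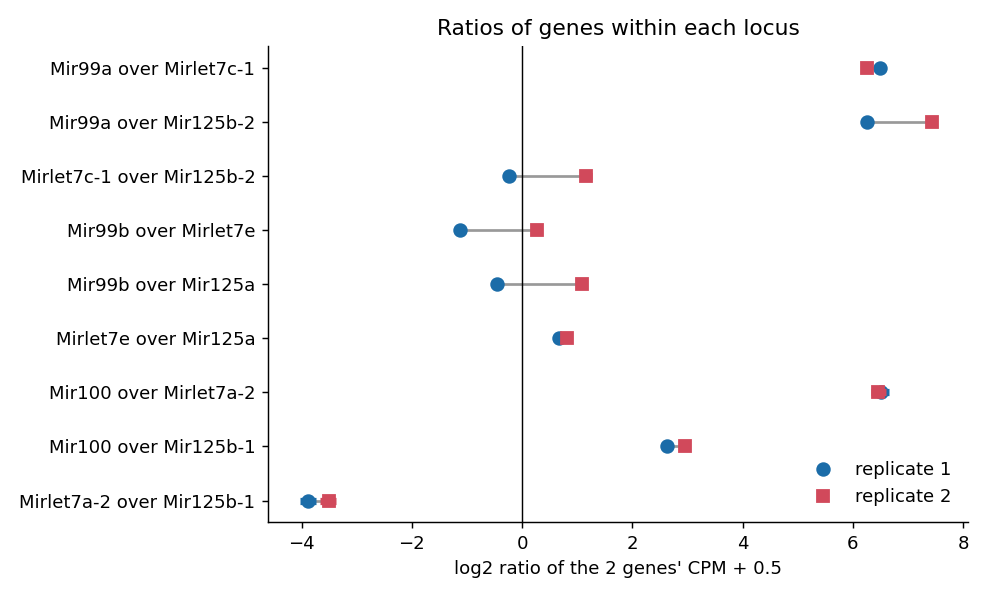
The log2 ratio (horizontal) of each pair of genes within a locus (vertical) in replicate 1 (circles) and replicate 2 (squares), joined by a grey line, with thick coloured bars for the 95% counting interval where it is wider than the marker. The pairs with Mir99b and the pair of Mirlet7c-1 and Mir125b-2 cross 0 between the libraries.

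For scale, 764 other pairs of miRNA genes on the same strand within 60 kb, with a mean of 10 CPM or more each, had a median absolute change in log2 ratio of 0.50 (quartiles 0.23 and 0.84). The 9 pairs of the loci had a median of 0.37, and 4 of them changed by more than the median of the others: 2 pairs with Mir125b-2 and 2 pairs with Mir99b. Most of the other pairs, 681, lie on chromosome 12. Without these, an alternative chosen after seeing the data, the median of the 83 that were left was 0.64 (quartiles 0.21 and 1.23). These values are descriptions of 2 libraries, with pairs that share genes.

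The third question was whether copies with a shared mature sequence had other levels than unique ones. The 4 repeated copies, Mirlet7c-1, Mir125b-2, Mirlet7a-2 and Mir125b-1, had mean levels from 137 to 1751 CPM with a median of 788 CPM. The 5 unique copies, Mir99a, Mir99b, Mirlet7e, Mir125a and Mir100, had mean levels from 9613 to 74586 CPM with a median of 13399 CPM. In each library the lowest unique copy was above the highest repeated one, 4.44-fold in replicate 1 and 4.94-fold in replicate 2. The repeated copies together held 0.332% and 0.361% of all counts. The reads given to no gene because they matched several places numbered 3629983 and 2714981, or 0.957 and 1.06 for each counted read. How many of them came from let-7a, let-7c or miR-125b was not tested, and the levels of the repeated copies are uncertain.

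Genes that share a mature sequence can be set side by side, though their 5p reads cannot be told apart. Mir125b-1 was 1.98 times Mir125b-2 in replicate 1 and 3.74 times in replicate 2. Mirlet7c-2, a neighbour of Mirlet7b, was 3.34 and 2.83 times Mirlet7c-1, with a mean of 2760 ± 538 CPM. Mirlet7a-1, of a let-7 cluster elsewhere, was 2.45 and 1.53 times Mirlet7a-2, with a mean of 261 ± 18.1 CPM. The copy inside the loci was the lower one for both let-7 pairs in both libraries. Mirlet7a-1 and Mirlet7c-2 also share a mature sequence with each other. The 3p arms of Mirlet7a-2 and Mirlet7c-1 lie in no other annotated hairpin, so the let-7 pairs are not compared on equal terms.

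The let-7 genes outside the loci were divided in the same way. Of these 11, the 4 repeated copies (Mirlet7a-1, Mirlet7c-2, Mirlet7f-1, Mirlet7f-2) had a median of 864 CPM. The 7 unique ones had a median of 20977 CPM, but ranged from 0.655 CPM for Mir7k (let-7k) to 87109 CPM for Mirlet7b, with Mir7j (let-7j) at 16.8 ± 5.07 CPM and Mir98 at 1894 ± 472 CPM. Their other members were Mirlet7i at 54567 ± 8830, Mirlet7g at 38031 ± 8846 and Mirlet7d at 20977 ± 1928 CPM. Mirlet7f-2 and Mirlet7f-1 were at 1467 ± 2.03 and 84.0 ± 0.697 CPM. Of all let-7 counts, the 3 genes of the loci gave 8.33% in replicate 1 and 7.02% in replicate 2. Repeated copies, whose levels are uncertain, lie both in the loci and outside them.

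**Figure D4:**
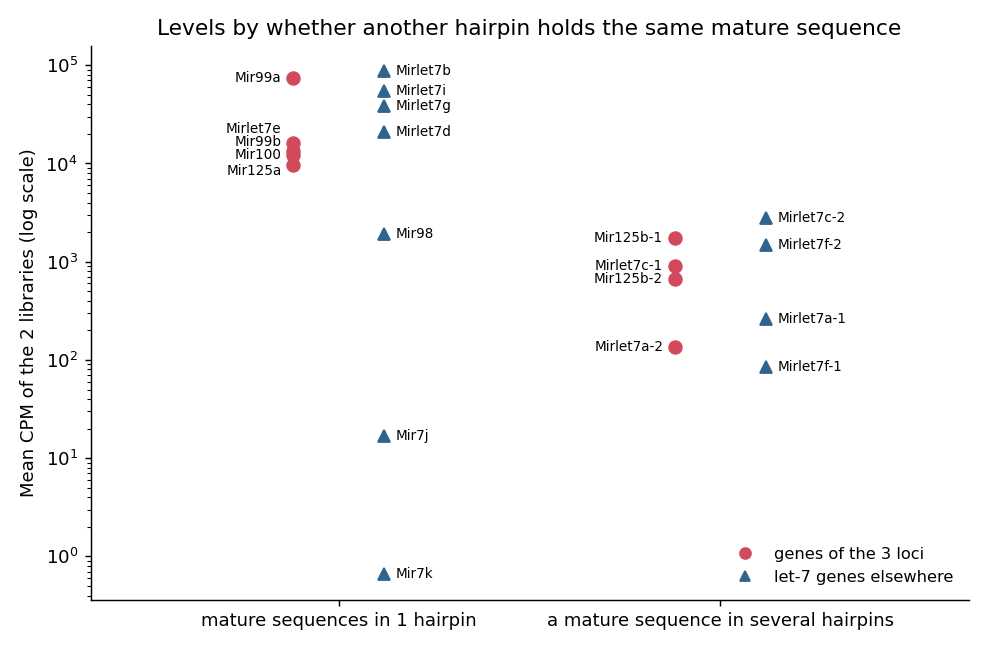
Mean CPM (vertical, log scale) of the genes of the loci (circles) and of let-7 genes elsewhere (triangles), by whether each gene's mature sequences lie in 1 annotated hairpin or in several. The circles on the left lie between 9613 and 74586 CPM and those on the right between 137 and 1751 CPM.

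A wider set was all other genes whose hairpin holds a mature sequence of the RefSeq table. It leaves out some abundant genes, such as Mir30d and Mir143, for which no such sequence was found. In this set, 46 of 338 repeated copies (13.6%) and 327 of 903 unique copies (36.2%) reached 2 CPM in both libraries. Among genes with at least 1 count the order was the other way, 46 of 58 (79.3%) against 327 of 590 (55.4%), with median levels of 44.2 and 4.29 CPM. The first comparison had the same direction as the separation in the 3 loci, and the second did not. The second leaves out the genes without a count, 280 repeated and 313 unique copies. It therefore cannot decide whether the separation holds beyond the loci.

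Relatives beyond let-7 were few. Mir351, an X-linked gene whose 5p arm has the miR-125 seed, was at 1847 and 1746 CPM, near Mir125b-1. Mir10a and Mir10b, Hox cluster genes whose mature sequences resemble miR-99 and miR-100 but have another seed, were at 3.48 ± 1.04 and 3.09 ± 1.60 CPM. These lay far below Mir99a, Mir99b and Mir100. Over the 2 libraries, the gene outside the loci with the nearest levels on the log2(CPM + 0.5) scale was Mir139 for Mir99a (distance 0.18), Mir23b for Mir100 (0.12) and for Mir99b (0.56), Mir149 for Mirlet7e (0.39) and Mir324 for Mir125a (0.17). It was Mir7b for Mir125b-1 (0.09), Mir322 for Mirlet7c-1 (0.19), Mir665 for Mir125b-2 (0.20) and Mir539 for Mirlet7a-2 (0.32). Likeness over 2 libraries is mostly likeness of level.

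The last comparison was of the libraries with each other. Each locus total was higher in replicate 2 by nearly the same amount, 0.41 in log2 for the Mir99a locus, 0.42 for the Mir99b locus and 0.45 for the Mir100 locus. The genes within a locus did not all move with its total. In the Mir99b locus the log2 ratios were 1.41 for Mir99b, 0.014 for Mirlet7e and -0.14 for Mir125a. In the Mir99a locus they were 0.42 for Mir99a, 0.64 for Mirlet7c-1 and -0.76 for Mir125b-2. All genes of the Mir100 locus were higher in replicate 2. In a two-sided exact binomial test, adjusted by the Benjamini-Hochberg method over the 507 genes with at least 10 counts in sum, 264 genes (52.1%) differed between the libraries. All 9 genes of the loci could be tested and 8 differed. All 9 had mean levels above 10 CPM, and of the 328 genes that averaged at least that level, 236 differed. The share of all tested genes, which includes genes with few counts, is thus a low standard for the 9. Of the 9, 6 were called with the higher level in replicate 2, as were 26.8% of all tested genes, and 2 with the higher level in replicate 1, as were 25.2%. Both red cell genes on the marker list were detected, at a summed 50.9 CPM in replicate 1 and 179 CPM in replicate 2, and the part of blood in these differences was not tested. The test covers counting error and compares these libraries, not conditions, and genes with many counts pass it with small differences.

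Mir99b had the largest difference of the 9, 2.65-fold higher in replicate 2. Mirlet7c-1 was 1.56-fold higher in replicate 2 (adjusted p = 7.73e-60 in the exact binomial test), Mirlet7a-2 1.45-fold (adjusted p = 3.01e-07), Mir100 1.40-fold, Mir99a 1.33-fold and Mir125b-1 1.12-fold (adjusted p = 3.10e-08). Mir125b-2 was 1.69-fold higher in replicate 1 (adjusted p = 2.40e-59) and Mir125a 1.10-fold (adjusted p = 2.96e-32). For Mirlet7e the log2 ratio was 0.014 and the adjusted p 0.208 in the same test. It passed the threshold with DESeq2's size factors, at a log2 ratio of 0.028. The median log2 ratio of the 9 was 0.42, against -0.018 over all tested genes, and their median absolute log2 ratio was 0.49, against 0.47.

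When the spread between libraries was set to edgeR's common dispersion, a coefficient of variation of 0.378, 2 of the 507 genes (0.394%) passed edgeR's exact test and none of the 9 did. Of the 9, none had an unadjusted p under 0.05 in that test either, against 23 of all tested genes, and the smallest was 0.086, for Mir99b. This dispersion was estimated from the same libraries. Of the related genes outside the loci, 13 of 14 were tested, and the exact binomial test called 5 upward in replicate 2 and 2 downward, beside 26.8% and 25.2% of all tested genes.

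**Figure D5:**
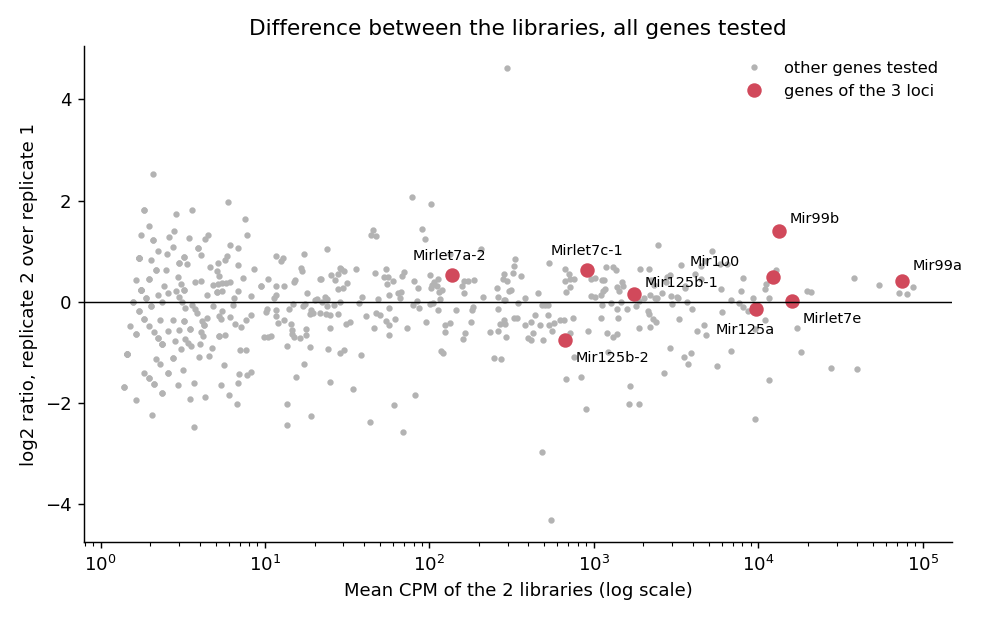
The log2 ratio of replicate 2 over replicate 1 (vertical) against mean CPM (horizontal, log scale) for the 507 tested genes, in grey, and the 9 genes of the loci, in red with names. Mir99b lies highest of the 9 and Mir125b-2 lowest, within the range of the grey points.

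Genes of other kinds lie on the opposite strand at Mir99a and Mirlet7c-1 (the protein-coding Gm11146) and at Mir100 (the lincRNA Gm48742). Mirlet7e was the only one of the 9 that overlaps an annotated miRNA gene there, Gm25927 (ENSMUSG00000092799.1, chromosome 17, 17830343 to 17830459, minus strand). In the count column that ignores strand, Mirlet7e was therefore at 0 in both libraries, and its reads were 27.8% and 26.9% of those that column could give to no single gene. Gm25927 had 0 counts on its own strand in both libraries. In the column for the other strand, each of the 9 genes had 0 counts, and the 8 genes other than Mirlet7e had the same counts with and without strand.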

How the data were processed

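Small RNA libraries of 2 hippocampus samples were analysed from 1 count table each. The tables as deposited by the authors hold raw counts of reads per miRNA gene on mm10 with GENCODE M21, per the accompanying text. The aligner, counting tool, trimming and filters stay unnamed, being not given in the sources used here. No column names are in the tables. Of the 3 count columns, that read as the gene's strand was used, since it holds the larger total of the 2 stranded ones, and 4 rows of unassigned reads stayed out of totals: in replicates 1 and 2, 41.3% and 20.7% of reads were unmapped and 4.85% and 6.51% lay outside miRNA genes. A gene with no count could be at up to 0.791 or 1.17 CPM (3 counts).

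CPM, log2(CPM + 0.5) and ratios were computed from the counts. A copy was called repeated when a RefSeq mature sequence in its hairpin lies in another annotated hairpin that does not overlap it. The genome itself was not searched. Intervals are Wilson for shares, exact Poisson for levels and exact binomial for ratios, at 95%. The binomial test across all genes was tested on simulated data with counting error alone, which the test assumes. That simulation does not cover the spread between these libraries. edgeR 4.0.16 and DESeq2 1.42.0 in R 4.3.3 gave other scalings and the common dispersion. Python 3.11.15, scipy 1.17.1, pandas 2.3.3 and matplotlib 3.10.9 were used. The chi-square of counts between the libraries was 264253 on 506 degrees of freedom, so they were kept as 2 samples.

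Members and gene lists were chosen with earlier results of these data known. The text names all 9 members, the listed relatives at 10 CPM or more, genes that overlap a member or share its mature sequence, and the nearest gene by level. Mir7k, Mir10a, Mir10b, Mir30d and Mir143 fall outside this rule and were named after their values were seen. The marker genes come from a fixed list, and which of them to name was not set beforehand. Alternatives were other scalings, denominators, count minimums, pseudocounts, the column that ignores strand, other background pairs, stretch lengths and each library alone.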

Additional observations from a re-analysis of the deposited data

How the results depend on the processing

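Scaling by TMM factors or DESeq2 size factors kept every level and locus total within 1 SD. With all reads, counted or not, as the denominator, the 9 genes held 4.13% in place of 12.9%, and the Mir99a, Mir99b and Mir100 loci 2.43%, 1.25% and 0.452%. In the column that ignores strand the Mir99b locus fell to 2.45%, from 3.90%, because Mirlet7e had no count there. The log2 ratios with Mirlet7e then became 14.63 for Mir99b over Mirlet7e and -14.32 for Mirlet7e over Mir125a. The Mirlet7e difference between the libraries, 0.014 in log2, was -0.020 with TMM factors and 0.028 with DESeq2 size factors, where it passed the threshold. In single libraries, Mirlet7c-1 over Mir125b-2 ranged from -0.23 to 1.16, Mir99b over Mirlet7e from -1.12 to 0.27 and Mir99b over Mir125a from -0.46 to 1.09, so that leaving out either library sets their direction. The number of genes that differed between the libraries, 264 of 507 tested, was 251 of 758 with a minimum of 1 count, 243 of 338 with a minimum of 50 counts, 246 of 483 in the column that ignores strand, 261 with TMM factors and 268 with DESeq2 size factors, so the share called moved with the filter. It was 2 in edgeR's exact test with the common dispersion, which was added after seeing the data. All stretch lengths tried (18, 20 and 22) gave the same number of repeated copies among the 9, 4. The share of other repeated genes at 2 CPM was from 6.32% to 7.96% with these lengths, against 13.6%. The sets of genes differ: 1028 to 1131 genes shared such a stretch, while the 13.6% is over 338 genes that share a mature sequence. The median unique copy was 13.1 and 20.1 times the median repeated one in single libraries. No paired analysis was possible because there is 1 group. Depth limits the ratio of Mirlet7a-2 most, with 414 counts in replicate 2.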
